A study of Mus musculus with 6 samples.

Results

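Keratins are the proteins of the intermediate filaments of epithelial cells, and their genes were examined here in a mouse mammary cancer cell line cultured for 2 days in medium that had held neutrophil extracellular traps or in control medium. All 55 rows of the deposited count table whose symbol begins with Krt and a digit were taken, of 55809 symbols in all. They comprised 28 type I genes, 26 type II genes and the processed pseudogene Krt8-ps. GENCODE M21 also annotates Krt74, counted here as type II, as a pseudogene. By position, 27 of them lay on chromosome 11, 27 on chromosome 15 and 1 (Krt8-ps) on chromosome 7.

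A keratin filament is built from pairs of a type I and a type II chain, and a chain left without a partner is degraded. Simple epithelia such as the luminal layer of the mammary gland pair Krt8 (type II) with Krt18 (type I) and add Krt7 and Krt19, while basal and myoepithelial cells pair Krt5 (type II) with Krt14 (type I). Krt6, Krt16 and Krt17 are known for their rise in wounded or rapidly dividing epithelium, and other sets belong to cornified epidermis, oral and corneal epithelium, the root sheath and the hair shaft.

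Neutrophil extracellular traps (NETs) are webs of chromatin and granule proteins that neutrophils release. The control group was 3 libraries of 410.4 cells in DMEM with 0.5% serum. The other group was 3 libraries of the same cells, at the same serum level, in medium in which NETs had been collected, and this NET-conditioned medium is called NET medium here. RNA was sequenced with a stranded mRNA kit, and the labels record no other treatment in either group. This is 1 cell line, and a response to NETs cannot be told apart from a response to anything else that differed between the media. The labels do not say that the 3 libraries of a group came from separate cultures, so the p-values measure the spread among these 6 libraries alone, and it may be technical.

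The libraries held 31119105 to 64431811 counts. Levels are given as CPM, the count divided by a library size scaled with TMM, and a value after ± is the standard deviation over the 3 libraries of a group. All 7 general epithelial markers examined were measured, with summed levels of 2459 to 2672 CPM in the control libraries and 2809 to 2921 CPM in the NET-medium libraries. Of these, Cldn4 was higher in NET medium (378 and 789 CPM), Cdh1 and Cldn7 were lower, 4 were not called, and the list's median was −0.06 on the log2 scale. Of 14 neutrophil markers, 7 had no count in any library, among them Elane, Camp and Ngp. The summed level of the list was 1.76 to 2.28 CPM in control medium and 2.98 to 3.37 CPM in NET medium. S100a8 was called higher (1.38 and 2.63 CPM on average) and Cxcr2 was not called (0.220 and 0.481 CPM). S100a9 averaged 0.109 and 0.0730 CPM. Ly6g, Ptprc, Itgam and Mpo averaged 0.121, 0.0932, 0.0516 and 0.0100 CPM in control medium and were at 0 in NET medium. The 7 myoepithelial markers summed to 0.672 to 0.929 CPM and 0.989 to 1.12 CPM in the same order. Only Mylk had enough counts to be tested, and it was not called (0.478 and 0.531 CPM on average). Acta2 averaged 0.0395 and 0.195 CPM, Tagln 0.0416 and 0.156 CPM, and Actg2 0 and 0.0370 CPM. Myh11 averaged 0.0737 and 0.0278 CPM, Cnn1 0.116 and 0.107 CPM, and Oxtr 0.0301 and 0.0129 CPM. The 8 fibroblast markers summed to 42.8 to 48.7 CPM and 59.3 to 68.0 CPM. Most of this was Pdgfra, at 45.4 and 49.2 CPM on average, which was not called. Col1a1 was called higher in NET medium (1.18 and 13.4 CPM). Col1a2 averaged 0.0295 and 0.0742 CPM, Pdgfrb 0.0321 and 0.0499 CPM, Col3a1 0.0147 and 0 CPM, and Dcn, Lum and Thy1 were at 0. The part of other cell types in the keratin differences was not tested.

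The count filter that the test needs was passed by 15 keratin genes, a further 20 had counts below it, and 20 had no count in any library. Of the 15 tested, 6 were called higher in NET medium (Krt7, Krt8, Krt14, Krt16, Krt17 and Krt42) and 2 lower (Krt18 and Krt23), at an adjusted p below 0.05 in edgeR's quasi-likelihood test. Among all 13956 genes tested 38.9% were called, 20.2% higher and 18.7% lower. The same 8 keratins had no overlap between the 3 libraries of one group and the 3 of the other, as did 49.0% of all genes tested. Of the 15 tested, 4 (Krt14, Krt17, Krt42 and Krt23) were both called and at least 2-fold different, which held for 5.95% of all genes tested. The median log2 fold change over the 15 tested keratins was 0.19, beside −0.00 over all genes tested, and the median of the absolute values was 0.41 beside 0.19.

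**Figure D1:**
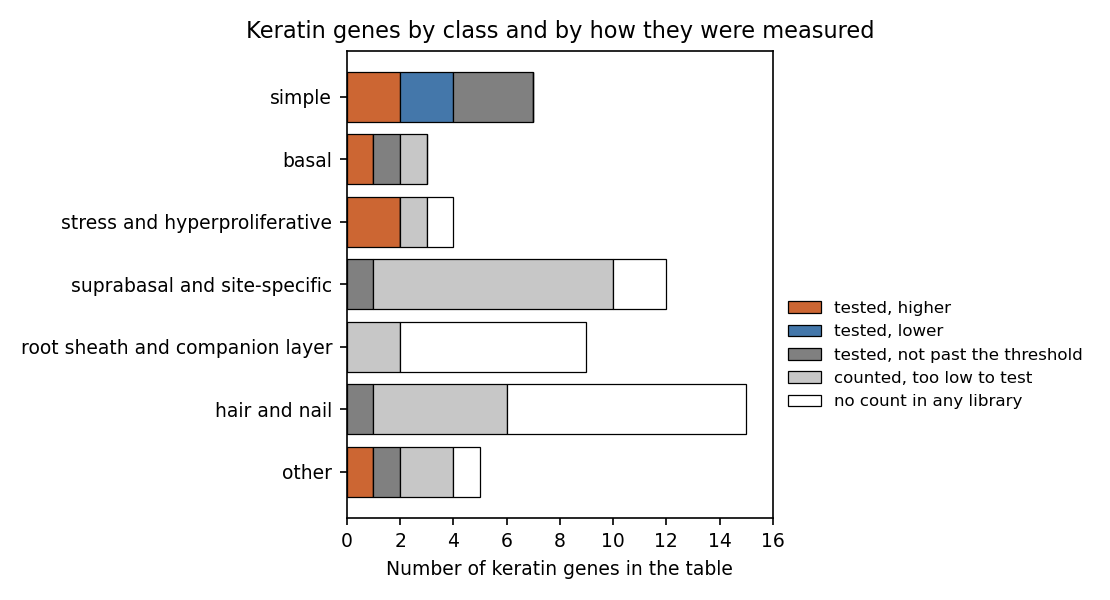
Number of keratin genes in each class (bars, horizontal axis in genes), divided by outcome: called higher, called lower, tested and not called, counted below the filter, or no count in any library. All 7 simple keratins were tested, and 2 were called higher and 2 lower, beside 38.9% of all genes tested that were called. No count was found for 9 of the 15 hair and nail keratins and 7 of the 9 root sheath and companion layer keratins.

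The basal type I keratin Krt14 (chromosome 11, 100093988 to 100098374 on the minus strand in the table's coordinates) had the largest fold change of the tested keratins. Its level was 6.19, 5.84 and 6.95 CPM in control libraries 1, 2 and 3 and 103, 97.0 and 108 CPM in NET-medium libraries 1, 2 and 3. Every NET-medium library therefore stood far above every control library, and the counts behind these values were 412, 264 and 383 against 4597, 2920 and 5564. The mean rose from 6.33 ± 0.569 to 102 ± 5.44 CPM, a log2 fold change of 4.01 (SE 0.07, 95% interval 3.86 to 4.17) or 16.2-fold, with an adjusted p of 1.11e-16. It ranked 35 of the 2825 genes called higher when these were ordered by fold change. In bulk RNA a larger number of cells with Krt14 and more Krt14 RNA per cell cannot be told apart, and this holds for every keratin below.

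Krt5, the type II partner of Krt14 in basal cells, did not rise with it. Its level was 1.05, 1.37 and 0.799 CPM in control medium and 0.937, 0.664 and 0.853 CPM in NET medium, so the groups overlapped. The log2 fold change was −0.37 (95% interval −0.98 to 0.25, adjusted p 0.353), and the interval leaves out any rise of the size seen for Krt14. Per kilobase of exon, the Krt14 level was 7.85 ± 2.81 times that of Krt5 in control medium and 159 ± 22.9 times in NET medium. The third basal keratin, Krt15, a type I chain also known from hair follicle stem cells, failed the filter with 6, 16 and 4 counts in control medium and 2, 4 and 2 in NET medium. Trp63, the master transcription factor of basal epithelium, was measured at 1.13 ± 0.292 and 1.37 ± 0.285 CPM (log2 fold change 0.27, adjusted p 0.466).

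Because Krt14, Krt16 and Krt17 are near copies in parts of their coding sequence, reads from one can be counted for another, and the longest stretch without a mismatch between Krt14 and Krt16 is printed to show how long it is. The 134 shared bases are in capitals with 20 bases of each transcript on either side in lower case. They are bases 399 to 532 of the 1698 bases of the Krt14 transcript and bases 294 to 427 of the 1565 bases of the Krt16 transcript (GENCODE M21, sense strand), within the coding part of both.
Krt14: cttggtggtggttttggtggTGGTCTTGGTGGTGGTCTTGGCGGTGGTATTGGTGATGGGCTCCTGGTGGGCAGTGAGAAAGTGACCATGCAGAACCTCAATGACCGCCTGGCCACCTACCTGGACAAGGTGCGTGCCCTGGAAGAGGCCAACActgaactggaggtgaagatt
Krt16: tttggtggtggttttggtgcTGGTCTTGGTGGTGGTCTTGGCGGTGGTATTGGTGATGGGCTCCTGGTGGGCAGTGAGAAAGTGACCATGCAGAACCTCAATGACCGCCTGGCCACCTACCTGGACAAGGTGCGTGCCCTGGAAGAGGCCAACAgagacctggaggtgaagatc
The stretch is longer than the 50-base words used to compare the transcripts. Of all such words in the Krt14 transcript 11.4% also occurred in Krt16 and 3.34% in Krt17, while 12.4% of those in Krt16 and 3.66% of those in Krt17 occurred in Krt14. A further 25.2% of the Krt16 words occurred in the gene model Gm11597.

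The stress keratins Krt16 and Krt17, type I chains induced in wounded epidermis, were higher in NET medium at low levels. Krt16 measured 1.67, 2.12 and 2.05 CPM in control medium and 3.17, 2.72 and 4.19 CPM in NET medium, without overlap (log2 fold change 0.81, SE 0.19, 95% interval 0.41 to 1.21, adjusted p 0.00267). Krt17 measured 0.541, 1.22 and 0.345 CPM against 1.56, 1.59 and 1.26 CPM, with control library 2 just below the lowest NET-medium library (log2 fold change 1.10, SE 0.36, 95% interval 0.32 to 1.87, adjusted p 0.0252). The Krt17 call was lost without control library 1 (log2 fold change 0.94, adjusted p 0.106), without control library 3 (0.77, 0.0836), without NET-medium library 1 (1.04, 0.0557) and without NET-medium library 2 (1.04, 0.0620). Without control library 2 the log2 fold change was 1.70 (adjusted p 0.00125). The type II stress keratins were not measurable: Krt6a had 2 to 6 counts in each library and Krt6b had none.

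Krt42, a type I keratin that neighbours Krt17 and is known from the nail, was the remaining low-level rise. It measured 0.406, 0.265 and 0.236 CPM in control medium and 0.580, 0.930 and 0.756 CPM in NET medium, a log2 fold change of 1.27 (SE 0.38, 95% interval 0.47 to 2.08, adjusted p 0.0132). That call was lost without control library 3 (1.12, adjusted p 0.0539) and without NET-medium library 2 (1.12, adjusted p 0.0567). Of its 50-base words 0.268% occurred in Krt17 and none in Krt14. In absolute terms Krt7 and Krt8 rose by 306 and 113 CPM, Krt18 fell by 206 CPM, and the low-level rises were small beside that of Krt14: the mean of Krt14 rose by 96.1 CPM, and those of Krt16, Krt17 and Krt42 by 1.41, 0.771 and 0.453 CPM, which are 1.47%, 0.802% and 0.471% of the Krt14 rise. The part of reads shared with Krt14 in the rises of Krt16 and Krt17 was not tested.

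**Figure D2:**
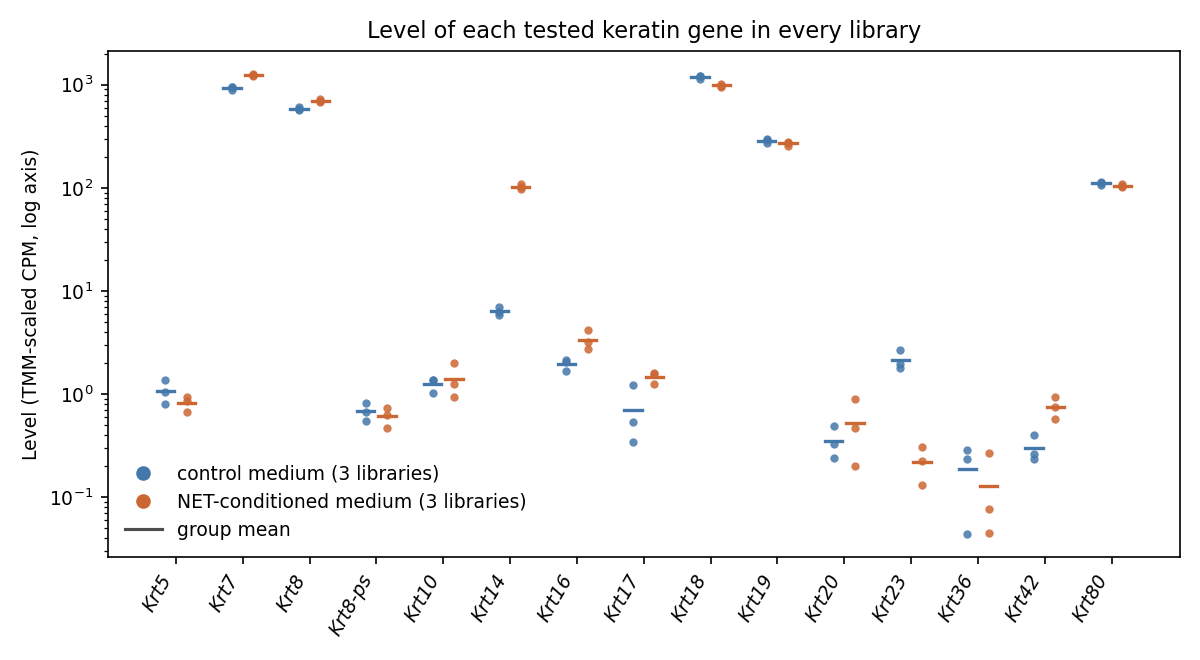
Level of each of the 15 tested keratin genes in every library (points, TMM-scaled CPM on a log axis, not divided by gene length) with group means as lines, control medium in blue and NET medium in orange. The Krt14 points rise from about 6 to about 102 CPM and the Krt23 points fall from 2.15 to 0.222 CPM on average, while the Krt19 and Krt80 groups overlap.

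Krt14 and the 3 low-level type I genes called higher lie near each other on chromosome 11, with Krt16, Krt17 and Krt42 starting 41.4, 53.5 and 62.3 kb upstream of the Krt14 start on the same strand. Within 200 kb of that start 29 genes were listed and 13 were tested. Downstream, Krt19 at 58.9 kb and Krt36, a keratin of tongue and nail, at 102 kb were not called (log2 fold changes −0.09 and −0.78). Jup, which encodes the desmosome protein plakoglobin, starts 190.2 kb upstream and rose from 384 ± 19.7 to 612 ± 10.9 CPM (a log2 difference of 0.67 with adjusted p 1.16e-08). Eif1, a translation initiation factor, and Hap1, a huntingtin-binding protein, lie between Jup and the keratins and fell by 0.15 and 0.20 on the log2 scale (adjusted p 0.0264 and 0.00547). The rises thus did not extend to every tested gene of the region.

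**Figure D3:**
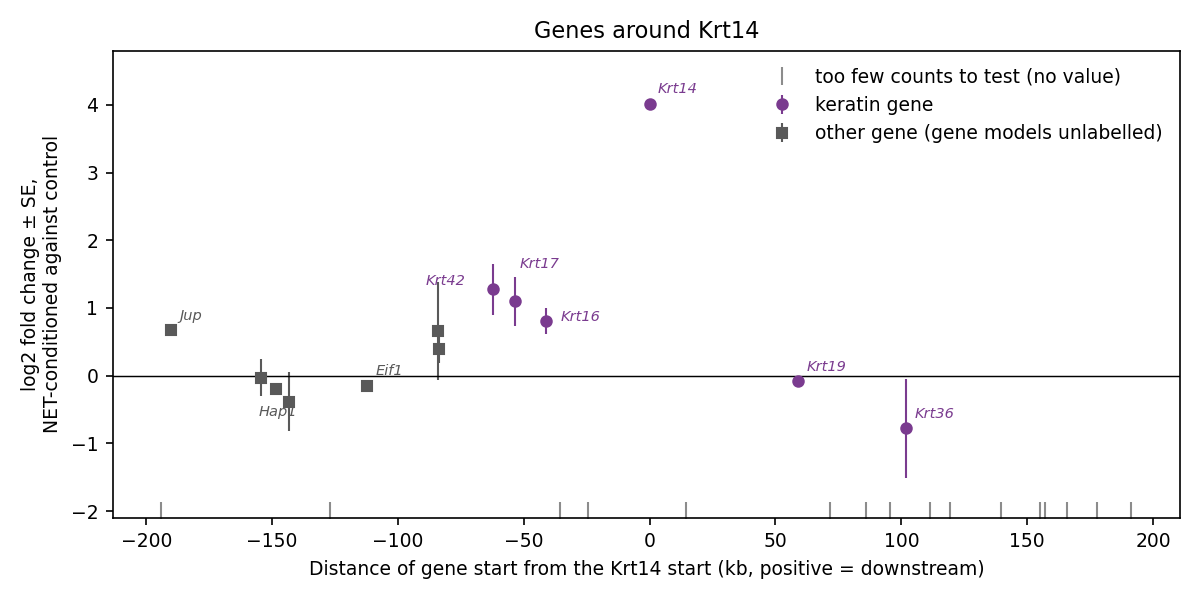
Log2 fold change (vertical axis, bars are standard errors) of the genes within 200 kb of the Krt14 start, by distance in kb, with grey ticks for genes with too few counts to test. Krt14, Krt16, Krt17 and Krt42 lie above 0 next to each other, and Krt19 and Krt36 on the other side lie at −0.09 and −0.78.

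Krt23, a type I keratin of simple epithelia, showed the largest fold decrease among the tested keratins. It measured 1.80, 2.70 and 1.96 CPM in control medium and 0.223, 0.133 and 0.310 CPM in NET medium, from 120, 122 and 108 counts against 10, 4 and 16. All control libraries were above all NET-medium libraries. The mean fell from 2.15 ± 0.478 to 0.222 ± 0.0886 CPM, a log2 fold change of −3.18 (SE 0.32, 95% interval −3.87 to −2.49) or 9.07-fold lower, with an adjusted p of 6.17e-07. It ranked 17 of the 2605 genes called lower by fold change, and it passed the count filter through the control libraries. It shared no 50-base word with another gene's transcripts.

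The abundant simple keratins changed by less than 1.4-fold, and not in the same direction. Krt7, a type II chain of ductal and glandular epithelium, measured 895, 948 and 959 CPM in control medium and 1215, 1229 and 1276 CPM in NET medium. Krt8 measured 565, 584 and 612 CPM and then 698, 719 and 684 CPM. Krt18, the type I partner of Krt8, measured 1137, 1215 and 1217 CPM in control medium and 949, 1022 and 980.4 CPM in NET medium. In each of these 3 genes the groups did not overlap, with both type II chains higher and the type I chain lower in NET medium. The log2 fold change was 0.41 for Krt7 (SE 0.05, 95% interval 0.30 to 0.51, adjusted p 4.66e-06) and 0.25 for Krt8 (SE 0.05, 95% interval 0.15 to 0.36, adjusted p 0.000491). For Krt18 it was −0.27 (SE 0.05, 95% interval −0.38 to −0.17, adjusted p 0.000377). Part of the Krt8 transcript is repeated in its processed pseudogene: 26.9% of the Krt8 50-base words occurred in Krt8-ps, which itself measured 0.679 and 0.607 CPM on average (log2 fold change −0.20, adjusted p 0.684).

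Krt19, the short type I chain of luminal epithelium, and Krt80, a type II chain found near desmosomes, were not called. Krt19 measured 274, 290.1 and 295 CPM against 255, 279.9 and 274 CPM (log2 fold change −0.09, 95% interval −0.19 to 0.02, adjusted p 0.203). Krt80 measured 107, 112 and 114 CPM against 101, 109 and 105 CPM (−0.08, −0.19 to 0.03, 0.242). Both became called lower when libraries were scaled by their size alone, with log2 fold changes of −0.15 and adjusted p of 0.0147 and 0.0211. The intestinal keratin Krt20 stayed below 1 CPM in every library, at 0.201 to 0.892 CPM (log2 fold change 0.62, 95% interval −0.42 to 1.66, adjusted p 0.348).

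**Figure D4:**
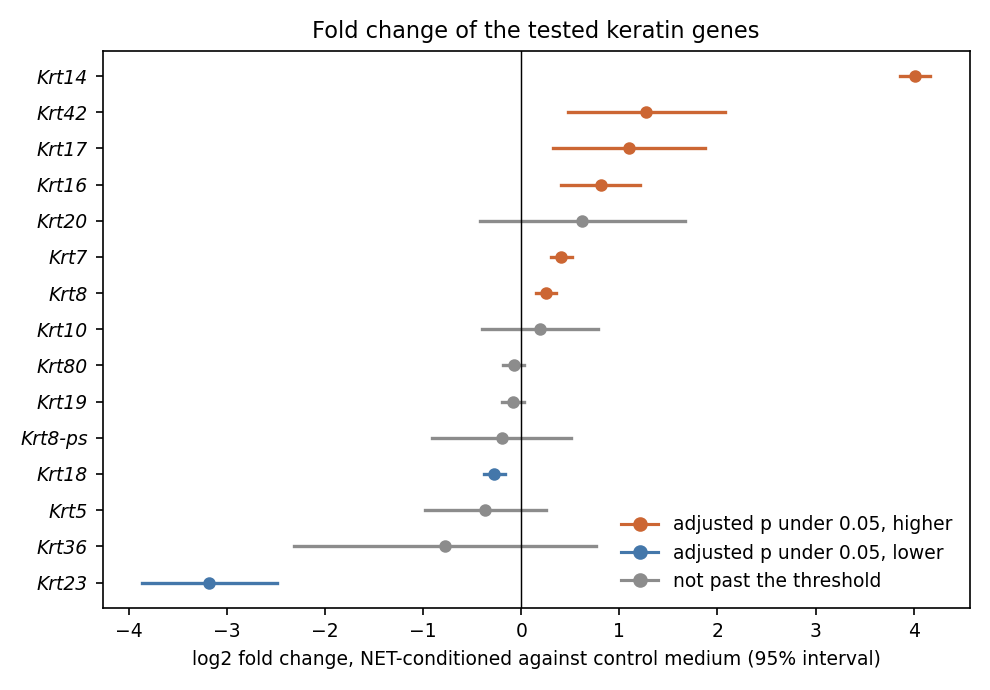
Log2 fold change of each tested keratin gene, NET medium against control medium, with 95% intervals from the edgeR fit. Krt14 at 4.01 and Krt23 at −3.18 stand apart from Krt7, Krt8, Krt18, Krt19 and Krt80, which lie within 0.41 of 0 with narrow intervals.

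Levels between genes were compared per kilobase of all annotated exons, as CPM per kilobase. On that scale the order in control medium was Krt18 at 828 ± 31.7, Krt8 at 299.8 ± 12.3, Krt19 at 154 ± 5.91, Krt7 at 133 ± 4.84, Krt80 at 17.3 ± 0.607 and Krt14 at 3.60 ± 0.324. In NET medium it was Krt18 at 685 ± 25.3, Krt8 at 358 ± 9.04, Krt7 at 176 ± 4.59, Krt19 at 145 ± 6.88, Krt14 at 58.3 ± 3.09 and Krt80 at 16.4 ± 0.655. Per exon length, Krt7 was below Krt19 in control medium and above it in NET medium, which did not hold for the other lengths described next. No neighbours in either order came within their standard deviations of each other. Among all 13956 genes tested, ordered by this level, Krt18 stood at rank 12 in control medium and 17 in NET medium, Krt8 at 84 and 63, and Krt14 at 8463 and 789.

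The order depends on the length chosen, because the annotated exons of Krt7 add up to 7049 bases and its coding part to 1371. Per kilobase of coding sequence Krt7 stood at 681 ± 24.9 in control medium, below Krt18 at 938 ± 35.9, and at 904 ± 23.6 in NET medium, above Krt18 at 775 ± 28.7. On that scale Krt7 was above Krt19 in both media (Krt19 at 237 ± 9.07 and 223 ± 10.6), and Krt14 stayed below Krt80 in NET medium, at 70.6 against 77.5. Per kilobase of principal transcript, too, Krt7 was already above Krt19 in control medium, at 228 against 182.

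The mixture of keratin RNA shifted between the media, while the direction of its sum depended on the scale. The summed level of the 28 type I and 26 type II genes, without Krt8-ps, was 1441 ± 54.1 CPM per kilobase in control medium. It was 1444 ± 37.1 in NET medium, with overlap. As TPM, which scales by length and total alone, it was lower in NET medium without overlap, at 5496 to 5734 in control libraries and 5412 to 5482 in NET-medium libraries. Type I chains made up 68.7 ± 0.355% of the sum in control medium and 61.8 ± 0.549% in NET medium. Krt8 and Krt18 together fell from 78.3 ± 0.0251% to 72.2 ± 0.717%, and the Krt14 share went from 0.2499% to 4.04%. In each of these 3 shares the libraries of the groups did not overlap. The ratio of Krt8 to Krt18 was 0.362 ± 0.00860 in control medium and 0.523 ± 0.0149 in NET medium.

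Per kilobase of coding sequence the sum was higher in NET medium without overlap, with a mean of 2348 in control medium and 2534 in NET medium, and with no length division it was 2992 to 3214 CPM and 3329 to 3464 CPM. Per kilobase of coding sequence type I chains made up 50.4% and 42.4% of the sum. The type I share was lower in NET medium on both scales. Krt7, Krt8, Krt14, Krt18, Krt19 and Krt80 held 99.6% of the summed level per exon length in either medium. These values are for RNA, and protein was not measured.

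**Figure D5:**
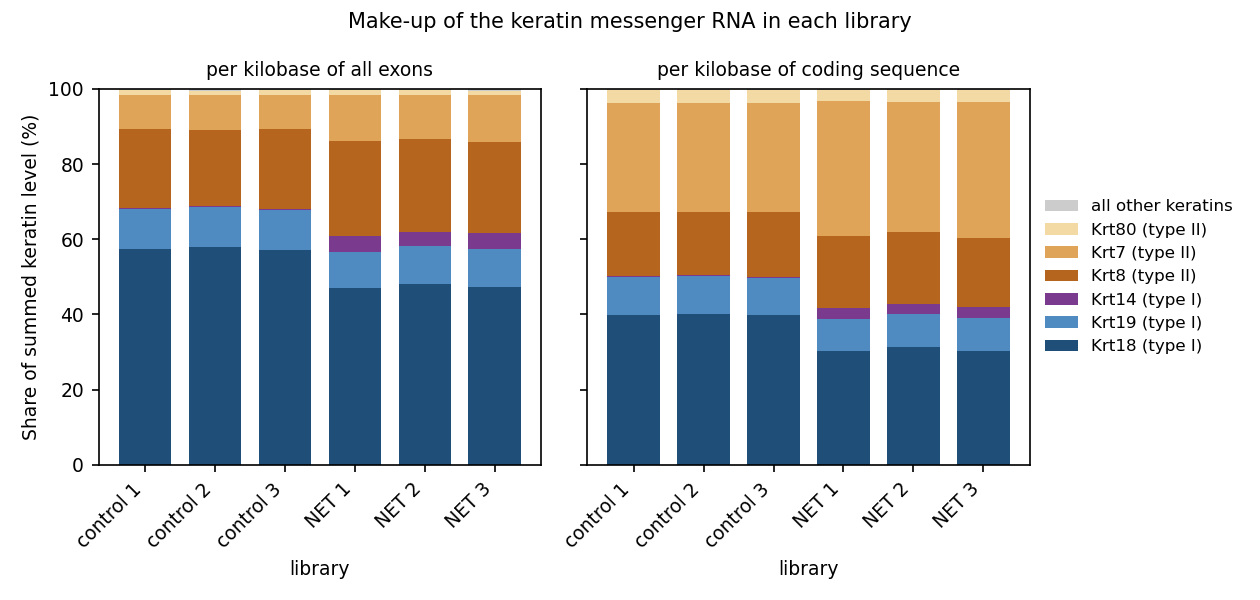
Share of each keratin in the summed keratin level (vertical axis, percent), 1 bar per library, with levels per kilobase of exon on the left and per kilobase of coding sequence on the right. On the left Krt18 takes a mean of 57.5% in control medium and 47.4% in NET medium and the Krt14 band goes from 0.2499% to 4.04%, and on the right Krt7 goes from 29.0% to 35.7%.

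Of the 12 keratins of cornified epidermis, oral mucosa, cornea and other specific sites, only Krt10, the type I chain of suprabasal epidermis, passed the filter. It measured 1.02, 1.37 and 1.38 CPM in control medium and 1.25, 0.930 and 2.00 CPM in NET medium, and the groups overlapped (log2 fold change 0.19, 95% interval −0.40 to 0.78, adjusted p 0.642). Its type II partners Krt1 and Krt2 had no count in any library. Krt13, the type I chain of oral and oesophageal mucosa, had 34, 6 and 22 counts in control medium and 6, 2 and 4 in NET medium. In CPM the groups overlapped, with control library 2 at 0.133 and NET-medium library 1 at 0.134. With no count filter, edgeR gave it a log2 fold change of −1.90 (SE 0.64, adjusted p 0.0175). Its type II partner Krt4 had 4, 14 and 8 counts against 2, 4 and 0. Krt79 had 2 to 8 counts in each library, and Krt9, Krt12, Krt24, Krt76, Krt77 and Krt78 had at most 3.

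Hair and nail keratins were represented in the test by Krt36 alone, with 0.0442 to 0.286 CPM over the 6 libraries (log2 fold change −0.78, 95% interval −2.32 to 0.76, adjusted p 0.434). With a library left out its log2 fold change ranged from −1.63, without NET-medium library 2, to −0.34, without control library 1. Krt87 had 0 to 8 counts per library and Krt31, Krt81, Krt84 and Krt86 at most 2. The remaining 9 of the 15 had no count: Krt32, Krt33a, Krt33b, Krt34, Krt35, Krt39, Krt40, Krt82 and Krt83. Of the 9 keratins of the root sheath and companion layer, Krt27 and Krt73 had at most 4 counts in a library, and Krt25, Krt26, Krt28, Krt71, Krt72, Krt74 and Krt75 had none. Among the less studied genes Krt88 had 2 to 11 counts, Krt90 had at most 3 and the short keratin-like Krt222 had none.

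A count of 0 limits what can be said of the 20 genes without a count. Both mates of a read pair appear to have been counted, so 3 fragments were taken as 6 counts, which gives an upper limit of 0.0902 to 0.199 CPM depending on the library and covers counting error only. In all, 36 of the 55 genes had fewer than 10 counts in every library.

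The 250 bases upstream of the start that RefSeq gives are printed for 4 keratins whose level differed between the media. They are from GRCm38.p6, read 5′ to 3′ on the strand of the gene, and can be set beside the values above. Capitals mark matches to the searched motifs, which were TATAAA on the gene's strand and, on both strands, TGANTCA (AP-1), GTCTAGAC (SMAD), GGAATG (TEAD), GCCNNNGGC (AP-2), GGGCGG (GC box) and CCAAT. The windows are chr11:100206031-100206280 (minus strand) for Krt14, chr11:99493121-99493370 (minus strand) for Krt23, chr15:101412153-101412402 (plus strand) for Krt7 and chr15:102027966-102028215 (plus strand) for Krt18.
Krt14: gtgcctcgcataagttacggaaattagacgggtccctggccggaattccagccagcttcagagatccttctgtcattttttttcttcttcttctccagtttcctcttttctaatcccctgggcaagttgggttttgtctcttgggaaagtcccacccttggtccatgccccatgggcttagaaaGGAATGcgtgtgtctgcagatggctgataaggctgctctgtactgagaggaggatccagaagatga
Krt23: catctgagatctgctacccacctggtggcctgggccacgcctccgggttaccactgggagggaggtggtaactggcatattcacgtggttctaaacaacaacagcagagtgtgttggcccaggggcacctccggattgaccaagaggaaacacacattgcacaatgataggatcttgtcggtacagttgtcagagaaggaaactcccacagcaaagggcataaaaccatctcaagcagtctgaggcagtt
Krt7: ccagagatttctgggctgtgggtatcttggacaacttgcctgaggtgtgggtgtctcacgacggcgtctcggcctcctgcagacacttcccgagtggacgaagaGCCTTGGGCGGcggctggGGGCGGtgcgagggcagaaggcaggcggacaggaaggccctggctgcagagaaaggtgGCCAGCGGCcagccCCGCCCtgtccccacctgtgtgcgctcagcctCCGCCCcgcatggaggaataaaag
Krt18: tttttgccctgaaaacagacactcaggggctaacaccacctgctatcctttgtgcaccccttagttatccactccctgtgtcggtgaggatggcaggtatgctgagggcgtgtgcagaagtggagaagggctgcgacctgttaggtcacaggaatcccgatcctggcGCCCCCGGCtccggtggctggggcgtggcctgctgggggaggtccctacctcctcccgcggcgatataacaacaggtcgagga
These windows end at the start that RefSeq gives. In the GENCODE M21 annotation all 4 genes begin further upstream. The RefSeq start thus lies 1518 bases inside the Krt14 span and 1360 bases inside the Krt7 span. For Krt18 and Krt23 it lies 36 and 17 bases inside, so only the ends of those windows are within the genes. The windows of Krt14 and Krt7 therefore lie within the genes and not upstream of the GENCODE start. The distances from the Krt14 start given earlier refer to the table's gene start and not to this one. The Krt14 window held GGAATG at 66 to 61 bases before the RefSeq start, which motif 12.6% of all 32851 RefSeq windows of this length held. The Krt7 window had a GC content of 66.0%, with GCCNNNGGC at 2 places and GGGCGG or its complement at 4. Among all windows GCCNNNGGC occurred in 13.7% and GGGCGG in 32.7%, and the median GC content was 52.4%. The Krt18 window, with 60.4% GC, held GCCNNNGGC once, and the Krt23 window, with 52.8% GC, held none of the motifs. A match is a description of these letters only, and nothing about binding was measured.

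RefSeq windows were at hand for 36 of the 55 genes. The tested set includes the windows of Krt14 and Krt7, which lie inside the GENCODE spans. The set counted below the filter includes a Krt13 window whose RefSeq start lies 989 bases inside its span. TATAAA lay in 8 of the 13 windows of keratins with no count, in 5 of the 14 windows of those counted below the filter and in 2 of the 10 windows of those tested, beside 7.59% of all windows. The median GC content of these 3 sets was 43.6%, 47.6% and 53.4%. The sets were formed by the measured level, and these numbers are a description with no test.

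Genes whose products anchor, cross-link or bind keratin filaments changed in both directions. Of 20 tested, 7 were higher and 3 lower, beside 20.2% and 18.7% of all genes tested, with a median log2 fold change of 0.02, which turned to −0.00 with upper-quartile scaling and −0.05 with library size alone. Sfn, the 14-3-3 sigma protein that binds phosphorylated keratins, rose from 32.8 ± 1.97 to 362 ± 23.2 CPM (a log2 difference of 3.46 with adjusted p 1.11e-16). Pkp1, the desmosomal plakophilin of stratified epithelium, rose from 22.2 ± 0.588 to 42.7 ± 2.32 CPM (0.94, adjusted p 3.19e-09). Ppl, the linker periplakin, fell from 163 to 75.4 CPM (−1.11, adjusted p 1.91e-11).

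Of 12 tested transcription factors that act on epithelial keratin genes, 7 were lower and 0 higher, beside 18.7% and 20.2% of all genes tested, with a median log2 fold change of −0.35. At an unadjusted p below 0.05 edgeR found 8 lower and 0 higher, and DESeq2 and limma-voom each called 7 lower and 0 higher. Elf3, an epithelial ETS factor, fell from 80.0 ± 1.85 to 33.8 ± 2.24 CPM (−1.25, adjusted p 3.52e-11). Klf5, Klf4, Grhl1, Grhl3, Sox9 and Ovol1 were the others called lower, with log2 fold changes from −1.04 to −0.31.

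The other intermediate filament genes were mostly low, apart from the nuclear lamin genes. Of 9 tested, lamins included, 3 were higher and 1 lower, beside 38.9% of all genes called in either direction. The median log2 fold change was 0.32, and the neurofilament genes Nefl, Nefm and Nefh and the related Ina had no count. Vim, the filament of mesenchymal cells, was at 1.20 ± 0.155 and 1.48 ± 0.507 CPM (log2 fold change 0.32, adjusted p 0.373). The lamin genes Lmna (540 and 575 CPM) and Lmnb1 (151 and 158 CPM) were the most abundant of the list and were not called. The lamin gene Lmnb2 was at 33.1 and 41.6 CPM (0.33, adjusted p 0.000287) and Sync at 4.92 and 6.89 CPM (0.49, adjusted p 0.00890). Synm, the large filament protein synemin, was at 0.143 and 0.440 CPM (1.58, adjusted p 0.0103). It had 78 counts over the 6 libraries and passed the count filter only through the NET-medium libraries. Bfsp1, a lens filament gene, was at 0.733 and 0.268 CPM (−1.44, adjusted p 0.00413).

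Annotated genes on the opposite strand overlap 3 of the keratins with abundant counts. These are Gm671 at Krt7, Gm36026 at Krt8 and Gm35853 at Krt80, with 142, 237 and 740 counts summed over the 6 libraries. No source used here gives the strand setting of the counting, so reads of such pairs may be misassigned.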

How the data were processed

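RNA sequencing counts of 6 libraries were used, 3 in control medium and 3 in NET medium as the treatment labels assign them. The authors deposited whole-number counts per gene symbol, which were used as deposited. STAR 2.7.10a, Subread 2.0.3 with its featureCounts, and the build mm10 are named, per the submitters' processing notes. None of the 55 keratin spans overlapped its mm10 position, so the sources used here do not give the build of the table's coordinates, and likewise not the strand setting or the treatment of multi-mapping reads. Between 74.8% and 78.4% of counts from 1 to 20 were even in each library, as when both mates of a pair are counted.

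From these counts, genes were filtered with filterByExpr (minimum count 10), scaled by TMM and tested over all 13956 remaining genes with edgeR 4.0.16 (quasi-likelihood F test, robust, medium as the only term) in R 4.3.3, with Benjamini-Hochberg adjustment and a call at 0.05. The steps were tested on simulated data. Every tested keratin was named, with the 4 genes of smallest p in each of the partner list (anchors and transcription factors joined) and the list of other filaments. Trp63, Vim, Lmna, Lmnb1 and the genes near Krt14 were added. Members and lists were chosen with earlier results of these data known. Alternatives were DESeq2 1.42.0, limma-voom (limma 3.58.1), other scalings and filters, a replicate block, halved counts, and each library left out, and, added after seeing the data, other gene lengths. Sequence words of 50 bases came from GENCODE M21 transcripts.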

Additional observations from a re-analysis of the deposited data

How the results depend on the processing

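Under 15 other settings, 219 fold changes of the tested keratins were recomputed, and 209 kept their direction and their side of the threshold. Of the rest 6 were the lost calls of Krt17 and Krt42 and 2 the added calls of Krt19 and Krt80 given above. The other 2 changed sign without NET-medium replicate 3: Krt10 to −0.18 and Krt20 to −0.12, neither called there or in the full data (adjusted p 0.689 and 0.903). Over all left-out libraries Krt10 ranged from −0.18 to 0.38 and Krt20 from −0.12 to 1.02. Keratins called higher numbered 4 to 6 when a library was left out, and those called lower 2 to 3. Over all genes the calls also became fewer without a control library. They numbered 5430 in the full data and 4348, 4917 and 5181 without control libraries 1, 2 and 3. Scaling by library size alone gave 4 called lower, with 35.9% of all called genes higher in place of 52.0%. With no filter 35 keratins were tested, and Krt13 joined those called lower. Krt42 was not tested when 1 CPM in 3 libraries was required. The replicate numbers were not taken to pair the libraries. Same-numbered deviations correlated at 0.118, −0.0593 and 0.0564, and not every library correlated best with its own number. Taken from means of 3 libraries, these correlations cannot show whether the libraries were prepared in pairs. The fit with a replicate block called 6 higher and 2 lower.

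The summed keratin level in control and NET medium was 1441 and 1444 per kilobase of exon, 3124 and 3411 with no length division, 1583 and 1616 with principal transcript length, 2348 and 2534 with coding length, and 5654 and 5456 as TPM. The type I share was 47.7% and 39.99% with no length division, 64.3% and 56.96% with principal transcript length, and 50.4% and 42.4% with coding length. The share of Krt8 with Krt18 was 56.9% and 49.4% with no length division, 71.2% and 64.5% with principal transcript length, and 56.9% and 49.4% with coding length. With a library left out, the sum ranged from 1420.4 to 1471.5 in control medium and from 1425 to 1462.5 in NET medium. The type I share then ranged from 68.5% to 68.9% and from 61.7% to 62.2%, and the share of Krt8 with Krt18 was 78.3% and from 71.9% to 72.6%. Depth limits keratins below about 0.0902 to 0.199 CPM, where a count of 0 is possible.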
